A study of Rattus norvegicus with 232 samples.

Results

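The renin-angiotensin system genes of the rat brain were taken as 8 genes chosen by name: Agt, Ace, Agtr1a, Agtr1b, Mas1, Atp6ap2, Lnpep and Enpep. The RefSeq gene table of processing version v7.1 held 7 of the 8 among its 20859 genes, and Agtr1b was not analysed here. The samples were brain RNA of inbred rats of the Hybrid Rat Diversity Panel, and the table held 214 libraries of 197 animals from 74 strains. Of these strains 54 had 3 animals, 15 had 2 and 5 had 1. In all 25 were classic inbred strains, 30 were recombinant inbred strains of the HXB/BXH family, with 20 HXB and 10 BXH strains, and 19 belonged to the FXLE/LEXF family. The progenitors of the HXB and BXH strains were SHR/OlaIpcv and BN-Lx/Cub. FXLE and LEXF strains descend from F344/Stm and LE/Stm, so that within a family each stretch of chromosome comes from 1 of the progenitors. The classic strains were divided by textbook knowledge into 6 strains known for raised blood pressure, SHR/OlaIpcv, SHRSP/A3NCrl, SS/JrHsd, LH/MavRrrc, FHH/EurMcwi and MWF/Hsd with 16 animals, and 19 others with 50 animals. The labels give no blood pressure, diet or age. Of the 232 labelled samples, 193 carry a label of no treatment and 148 a label of male sex, and the others carry no such label. The paper covers part of these strains, and by its methods its rats were male and of similar age. Their brains were split sagittally, and 1 side was sequenced.

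In the renin-angiotensin system, angiotensinogen, the product of Agt, is cut to angiotensin I, and the peptidase encoded by Ace cuts this to angiotensin II. Angiotensin II acts on the type 1 receptor, which rats encode in Agtr1a and Agtr1b. Aminopeptidase A, encoded by Enpep, shortens angiotensin II to angiotensin III. Lnpep encodes a membrane aminopeptidase known as the binding site of angiotensin IV, Mas1 the receptor of angiotensin 1-7, and Atp6ap2 a receptor of the system that is also a part of the vacuolar proton pump. In the brain, Agt is known mainly from astrocytes, and the system is known for its part in blood pressure, thirst and salt appetite. These libraries are of bulk tissue, so that fewer cells of a type and less RNA per cell cannot be told apart.

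Enpep was the member whose expression differed most clearly between strains, and its 250 bases before the start site are shown because the results below turn on this gene. In the transcripts that the authors reconstructed on rn6 (version v5), those named Enpep (ENSRNOG00000051854) together span chr2:233667254-233982712 on the minus strand. This span may exceed that of the reference gene. The sequence is that of RefSeq in build GRCr8, chr2:220526219-220526468, minus strand, 5′ to 3′. That assembly is of BN/NHsdMcwi, 1 of the classic strains measured here.
Enpep upstream: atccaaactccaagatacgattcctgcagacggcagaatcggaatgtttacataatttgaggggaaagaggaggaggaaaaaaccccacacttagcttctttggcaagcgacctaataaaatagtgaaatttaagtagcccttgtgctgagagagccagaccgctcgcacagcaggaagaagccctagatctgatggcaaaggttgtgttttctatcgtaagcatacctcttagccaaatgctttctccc
No letters are in capitals because none of the 3 motifs searched on both strands was in it. The TATA box (letters TATAAA) was found in the same window of 12.9% of 33469 promoters, the CCAAT box in 34% and the GC box (letters GGGCGG) in 30.5%. The table of promoters held 7 of the 8 members. Its GC content was 45.2%.

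Values are on the log2 scale of the deposited table, and they are not per length, so that levels are compared between strains and not between genes. The scale was read from the values, and 5 values of the table, in 3 genes that are no members, lie above 30 and reach 36.88, too high for the log2 of a read count. The members lay between 3.88 and 13.61 in all libraries, and fold changes assume that the scale is log2. The 2 genes at the head of the cascade spanned a similar range over the 74 strain means. Agt ran from 12.11 in LEXF10A/Stm through a median of 12.49 to 12.93 in LEXF1C/Stm. The pooled SD between animals of a strain was 0.27 for Agt, above the SD of 0.21 between its strain means. Ace ran from 9.72 in HXB24/Ipcv through a median of 10.08 to 10.54 in LE/Stm, with 0.22 between animals and 0.14 between strains. Among the peptidases that act on angiotensin II and its fragments, Enpep ran from 7.58 in HXB29/Ipcv through 7.95 to 8.43 in LE/Stm. The SD of Enpep was 0.13 between animals and 0.20 between strains. Lnpep ran from 12.86 in HXB1/Ipcv through 13.10 to 13.35 in BN-Lx/Cub, with 0.15 between animals and 0.11 between strains. Of the receptor genes, Agtr1a ran from 4.22 in WAG/RijCrl through 4.55 to 5.17 in LE/Stm. Its SD was 0.21 between animals and 0.19 between strains. Mas1 ran from 7.73 in LEXF9/Stm through 8.05 to 8.44 in HXB13/Ipcv, with 0.14 between animals and 0.15 between strains. Atp6ap2 had the narrowest range, from 11.95 in HXB27/Ipcv through 12.15 to 12.33 in LEXF10A/Stm, with 0.11 between animals and 0.08 between strains. The 74 strains were then put in order, and each gap between neighbours was set against the larger SD between animals of those 2 strains. A strain with 1 animal has no SD, so that of its neighbour was used, and a pair without any SD was not counted. None of the 73 neighbouring pairs lay farther apart than this for Agt, Ace, Mas1 and Lnpep. For each of Agtr1a, Atp6ap2 and Enpep 1 pair did. With so many strains in a narrow range, small gaps say little on how far strains overlap. For Agtr1a and Enpep the strain set apart was LE/Stm at the top, whose next strains were SHR/OlaIpcv at 4.93 for Agtr1a and HXB10/Ipcv at 8.26 for Enpep.

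LE/Stm rested on 1 animal, and this library stood apart from the rest. The mean of its 6 liver markers was 17.98, where the median of all animals was 7.48. LE/Stm was the highest of 74 strains in Ace, Agtr1a and Enpep, and at rank 71 in Mas1 and rank 68 in Lnpep counted from the highest. The part of the liver signal in these levels was not tested. The 3 libraries labelled LEW/Crl, and as male, had the Y-linked gene Kdm5d between 9.57 and 9.64, where the other 194 animals had a median of 10.62, and 1 of these, labelled HXB17/Ipcv 2, was as low (9.32). Without the libraries of LE/Stm and LEW/Crl, called below the libraries in doubt, results are given where a call changed. Without the animal labelled HXB17/Ipcv 2 the same 4 and 3 members had a strain effect over 74 strains and in the HXB/BXH family as with it.

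**Figure D1:**
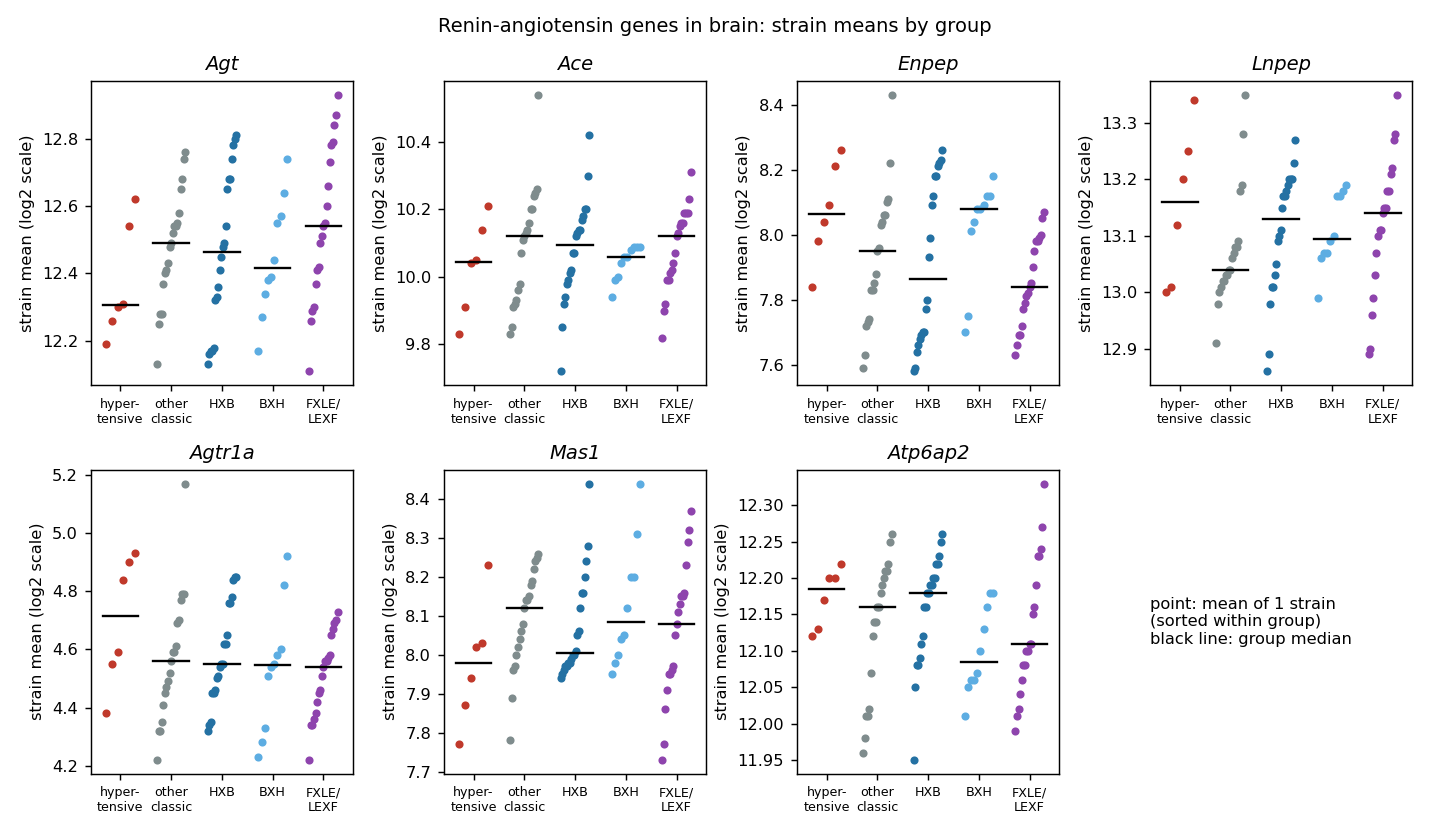
Strain means of the 7 measured genes on the log2 scale, 1 panel per gene, with 1 point per strain sorted within its group and a black line at the group median. The HXB strains of Enpep lie at 7.80 or lower or at 7.93 or higher, and the groups overlap for every gene.

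The first comparison asked how much of each gene's variation lay between strains. Strain explained most of the variation of Enpep, with a broad-sense R2 (the between-strain share of the total sum of squares) of 0.793 (adjusted p 2.97e-18, limma F-test), higher than 98.3% of genes. The receptor genes followed, with 0.625 for Mas1 (adjusted p 2.01e-06) and 0.539 for Agtr1a (adjusted p 0.00164). Agt had 0.469 and lay at the edge of the 5% false discovery rate (FDR), with an adjusted p of 0.0499. R2 was 0.449 for Atp6ap2, 0.445 for Lnpep and 0.376 for Ace, with adjusted p of 0.132, 0.127 and 0.483. With few animals per strain, this R2 lies well above 0 even without a strain effect. Its value without a strain effect was not computed here. So 4 of 7 members were called, where 37.3% of all genes were, and the median R2 was 0.469 over the members and 0.451 over all genes. The call of Agt was lost without the libraries in doubt (adjusted p 0.0516). Without replicate 2 the call of Agtr1a was lost (adjusted p 0.503), and without replicate 1 that of Mas1 (0.132), in fits where many strains keep 2 animals. In all, 2 of 7 members were called without replicate 2 (14.4% of all genes) and 3 without replicate 1 (15.9%).

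**Figure D2:**
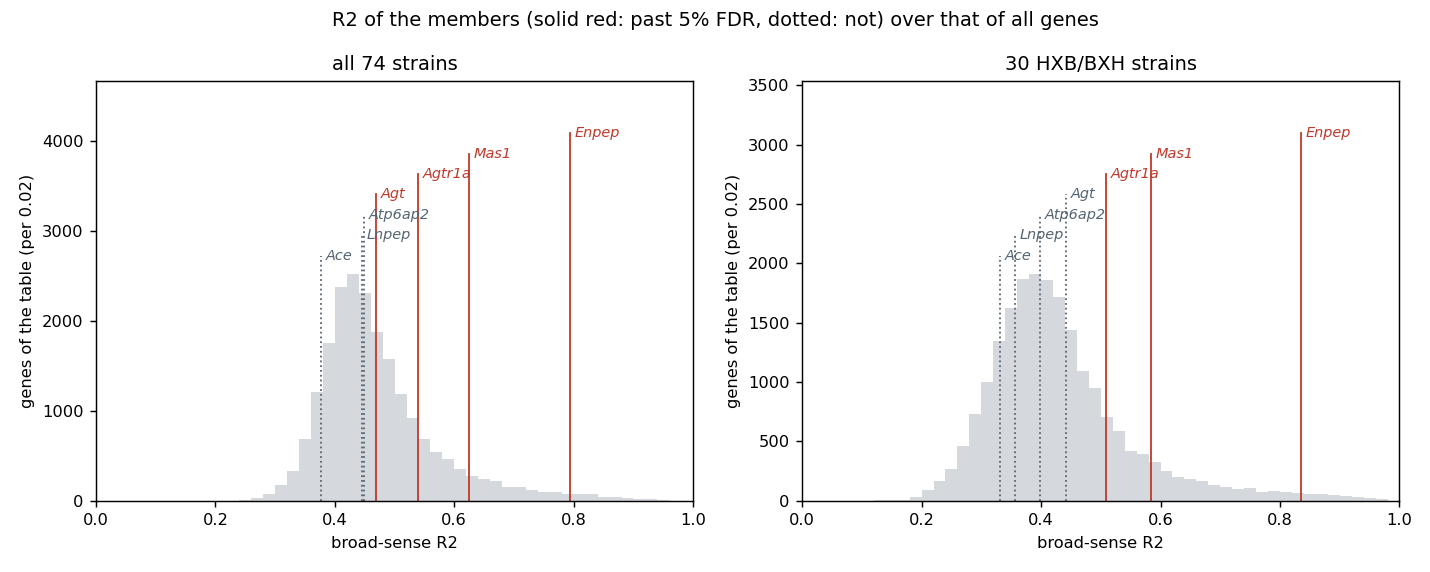
Histogram of the broad-sense R2 of all 20859 genes (bins of 0.02, number of genes on the y axis) over all 74 strains and over the 30 HXB/BXH strains, with a line at each member, solid where it passed 5% FDR. Enpep lies far in the right tail of both, at 0.793 and 0.835.

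Of 24 further genes of the pathway, 18 were in the table, and 7 of the 18 had a strain effect over all 74 strains, where 37.3% of all genes did. Their median R2 was 0.448, against 0.451 over all genes. Prcp, a carboxypeptidase that can cut angiotensin II, had the highest R2 of them, 0.728 (adjusted p 4.81e-12). The bradykinin receptor gene Bdkrb2 had 0.67. Thop1, an oligopeptidase, had 0.49 and Agtr2, the gene of the angiotensin type 2 receptor, 0.489. Prcp ran from 9.32 in LEXF10B/Stm to 9.84 in LE/Stm.

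When each panel was fitted alone, Enpep, Agtr1a and Mas1 had a strain effect among the classic strains and in the HXB/BXH family, and Mas1 in the FXLE/LEXF family. A difference between panels was not tested, and R2 without a strain effect depends on the numbers of strains and animals, which differ between panels. Among the 25 classic strains 3 of 7 members passed, where 19.3% of all genes did. They were Enpep at 0.767 (adjusted p 1.01e-05), Agtr1a at 0.628 (0.00599) and Mas1 at 0.588 (0.0291). Among the 19 FXLE/LEXF strains 1 of 7 members passed, where 4.61% of genes did, and this was Mas1 at 0.732 (adjusted p 0.0282). With batch as a covariate that call was lost (0.725, adjusted p 0.0534). Enpep had 0.637 there (adjusted p 0.159) and a range of strain means from 7.63 to 8.07. Among the 30 HXB/BXH strains Enpep had 0.835 (adjusted p 2.84e-12), Mas1 0.584 (0.00316) and Agtr1a 0.508 (0.0333), so that 3 of 7 passed, where 19.1% of all genes did. Prcp (0.546, adjusted p 0.0188) passed in this family as well. The call of Agtr1a in this family was lost with equal library medians (adjusted p 0.0516) and in 5 further alternatives, and that of Mas1 in each of the 3 fits without 1 replicate number.

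In the progenitors of the HXB/BXH family, Enpep was higher in SHR/OlaIpcv than in BN-Lx/Cub. The 2 SHR/OlaIpcv animals stood at 8.08 and 8.44 and the 3 BN-Lx/Cub animals at 7.76, 7.57 and 7.82. Both SHR/OlaIpcv animals thus lay above all 3 BN-Lx/Cub animals. The share of all genes in which these strains do not overlap was not counted. The difference was 0.54 (SE 0.118, 95% interval 0.31 to 0.77, adjusted p 0.00101, limma), or 1.45-fold, and 4.51% of all genes were called in this pair. Enpep was the member called of 7. It was no longer called without SHR/OlaIpcv replicate 4 (0.36, adjusted p 0.324), which leaves 1 SHR/OlaIpcv animal assumed to vary like the other strains, or in the table of reconstructed genes (0.46, adjusted p 0.0659).

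The libraries of SHR/OlaIpcv show how far Enpep moved with the animal and with the run. Animal 1 had 12 libraries between 7.83 and 8.28, and animal 4 had 6 libraries between 8.29 and 8.55. In the 3 batches that held both animals their means were 8.20 and 8.39, so that the gap between them was smaller than over all their libraries. In the 3 batches that held both strains, SHR/OlaIpcv minus BN-Lx/Cub was 0.35, 0.37 and 0.17 for Enpep. These are runs of the same animals, with SHR/OlaIpcv animal 1 in all 3 batches and BN-Lx/Cub animal 3 in 2 of them, and not independent replicates. A fit of single libraries, with batch as a covariate and animal as a random effect, was added after the data were seen. This fit gave 0.37 for Enpep (adjusted p 0.00469, limma). It called 16.5% of all genes. For this pair it rests on 18 libraries of 2 SHR/OlaIpcv animals and 4 libraries of 3 BN-Lx/Cub animals.

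The other members of the progenitor pair did not pass 5% FDR in the fit of animals. Agtr1a was 4.90 and 4.96 in the SHR/OlaIpcv animals and 4.66, 4.37 and 4.19 in the BN-Lx/Cub animals. The animals of the 2 strains did not overlap in Agtr1a, nor in Lnpep or Mas1, whose values follow. The share of all genes without such an overlap in this pair was not counted. The Agtr1a difference was 0.53 (95% interval 0.14 to 0.91, adjusted p 0.098, limma). Within the 3 shared batches, which repeat the same animals, it was 0.61, 0.56 and 0.98. The fit of libraries with batch as a covariate called it (0.71, adjusted p 0.000911, limma), where 16.5% of all genes were called. That fit repeats the same 2 SHR/OlaIpcv and 3 BN-Lx/Cub animals and adds no further animals. Lnpep was 13.07 and 12.94 in SHR/OlaIpcv and 13.56, 13.24 and 13.25 in BN-Lx/Cub, a difference of -0.35 (adjusted p 0.125). In the v5 table the Lnpep difference had the opposite sign, 0.24. Mas1 was 8.21 and 8.26 against 8.00, 8.14 and 7.87, a difference of 0.23 (adjusted p 0.339). Agt, Ace and Atp6ap2 differed by 0.13, 0.19 and -0.056, each with an interval that includes 0. The sign of these differences and of that of Mas1 changed in some other tables or fits, as given in the closing section. The mean of the 3 blood markers was 13.32 in SHR/OlaIpcv and 12.04 in BN-Lx/Cub, that of the 6 liver markers 7.83 and 7.15, and that of the 4 meningeal markers 10.85 and 10.43. Choroid plexus markers were at 9.22 and 8.94, striatal markers at 10.50 and 10.25, neuronal markers at 14.23 and 14.40, pericyte markers at 9.17 and 9.06 and endothelial markers at 10.33 and 10.26. The part of these in the differences was not tested.

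Enpep fell into a lower and a higher class of strains in the HXB/BXH family, and the progenitors lay at either side. A mixture of 2 normal distributions fitted the 30 strain means better than a single distribution by 16.14 units of the Bayesian information criterion, a gain over 10 that 1.92% of all genes had. The lower class held 12 strains between 7.58 and 7.80 with a mean of 7.69, and BN-Lx/Cub stood at 7.72. The higher class held 18 strains between 7.93 and 8.26 with a mean of 8.12, and SHR/OlaIpcv stood at 8.26. The strain with the least certain class was HXB4/Ipcv at 7.93. Of the HXB strains 10 of 20 and of the BXH strains 8 of 10 were in the higher class, and the HXB and BXH means differed by -0.11 (95% interval -0.28 to 0.06, adjusted p 1.00, limma). Single animals overlapped more than the strain means: the 36 animals of the lower class ran from 7.44 through a median of 7.69 to 7.97, and the 52 of the higher class from 7.76 through 8.13 to 8.36. Of the higher class 6 of 52 animals lay at or below the highest animal of the lower class, and 11 of 36 animals of the lower class at or above the lowest of the higher class. These classes were cut from the values shown, so no test was made between them. The gain was 0.21 for Mas1 and below 0 for the other 5 members, and 10.8% of all genes had a gain above 0.

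**Figure D3:**
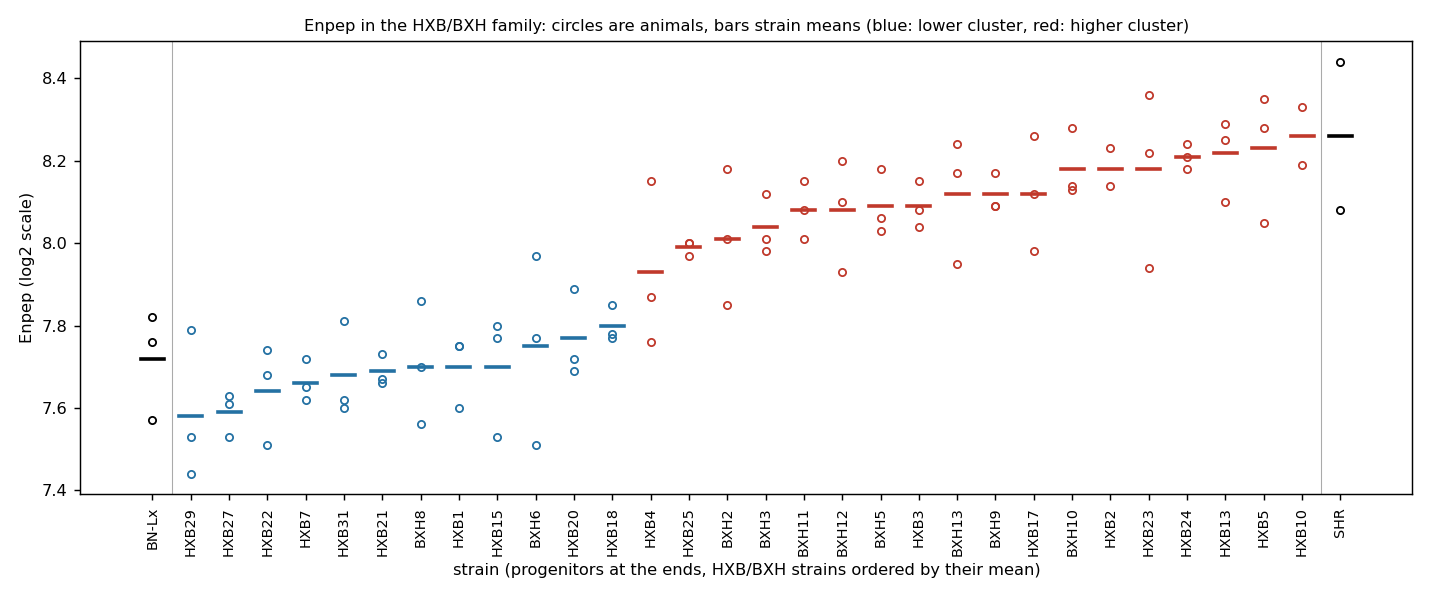
Enpep on the log2 scale in BN-Lx/Cub, the 30 HXB/BXH strains ordered by their mean, and SHR/OlaIpcv, with circles for animals and bars for strain means. The step lies between 7.80 and 7.93, with 12 strains (blue) below it and 18 (red) above it.

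Outside the family and its progenitors, Enpep means lay on both sides of the midpoint between the classes, 7.86. Of the 5 other hypertensive strains 1 lay below it and 4 above. Of the 18 other classic strains 7 lay below and 11 above, and of the 19 FXLE/LEXF strains 11 below and 8 above. BN/NHsdMcwi, the strain of the reference sequence printed above, stood at 7.59 ± 0.13 (SD, n = 3) and was the lowest classic strain for Enpep.

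The place of the 30 family strains between their progenitors was counted for each member. For Enpep 20 lay between SHR/OlaIpcv and BN-Lx/Cub, 9 below both and 1 above both. For Agtr1a, whose progenitors stood at 4.93 (SHR/OlaIpcv) and 4.41 (BN-Lx/Cub), 24 of 30 strains lay between them, 6 below and 0 above. BXH12/Cub, the highest RI strain, had animals at 4.87, 4.97 and 4.91 for Agtr1a, and BXH8/Cub, the lowest, had 4.51, 3.90 and 4.29. Mas1 had progenitors at 8.23 and 8.00 and 5 strains above both, 13 between and 12 below. HXB13/Ipcv had Mas1 at 8.44, 8.45 and 8.44 in its 3 animals and BXH13/Cub at 8.42, 8.55 and 8.35, above each of the SHR/OlaIpcv animals. For Agt 24 of 30 strains lay above both progenitors and 0 below, and for Atp6ap2 25 lay below both and 0 above. Ace had 18 above and 1 below, and Lnpep 26 between and 4 below. Each progenitor mean rests on 2 or 3 animals, and the spread of Agt between animals, 0.27, is more than the 0.13 between the progenitors.

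Neighbouring genes were compared because genes close on a chromosome are inherited together in recombinant inbred strains. Over the 30 strain means, 12 of 41 genes (29.3%) that start within 5 Mb of Enpep on chromosome 2 had a Pearson r with it beyond 0.5 in size, against 0.316% of 13937 genes on other chromosomes. The share was 16.7% of 48 genes near Mas1 on chromosome 1, against 4.99%, and 23.5% of 34 genes near Agtr1a on chromosome 17, against 1.2%. For Prcp it was 5.9% of 34, against 3.1%. These are descriptions over the same 30 strains and the same libraries, and the build of the v7.1 annotation, from which distances were taken, is not given in the sources used here.

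The genes near Enpep with the largest r moved against it. They were chosen after their values were seen. Sgms2, a sphingomyelin synthase gene 2.09 Mb farther along the chromosome, had an r of -0.88 over the 30 strains. Its strain means were 9.34 ± 0.10 (SD, n = 12) in the lower Enpep class and 8.72 ± 0.18 (SD, n = 18) in the higher class, with BN-Lx/Cub at 9.44 and SHR/OlaIpcv at 8.88. Hadh, a gene of mitochondrial fatty acid oxidation at 2.05 Mb, had an r of -0.71, Gstcd -0.70, Cyp2u1 -0.69, Mcub -0.65 and Col25a1 -0.61. Cyp2u1 was lower in the higher class (9.13, against 9.30) but higher in SHR/OlaIpcv (9.32) than in BN-Lx/Cub (9.15). Near Mas1 the largest r were positive, 0.82 for Synj2, 0.78 for Pde10a and 0.76 for Tiam2. Near Agtr1a the largest in size, leaving out LOC symbols, were 0.72 for Serpinb1b, 0.70 for Bphl, -0.66 for Nqo2 and 0.66 for Uqcrfs1, which starts 0.2 Mb before it.

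**Figure D4:**
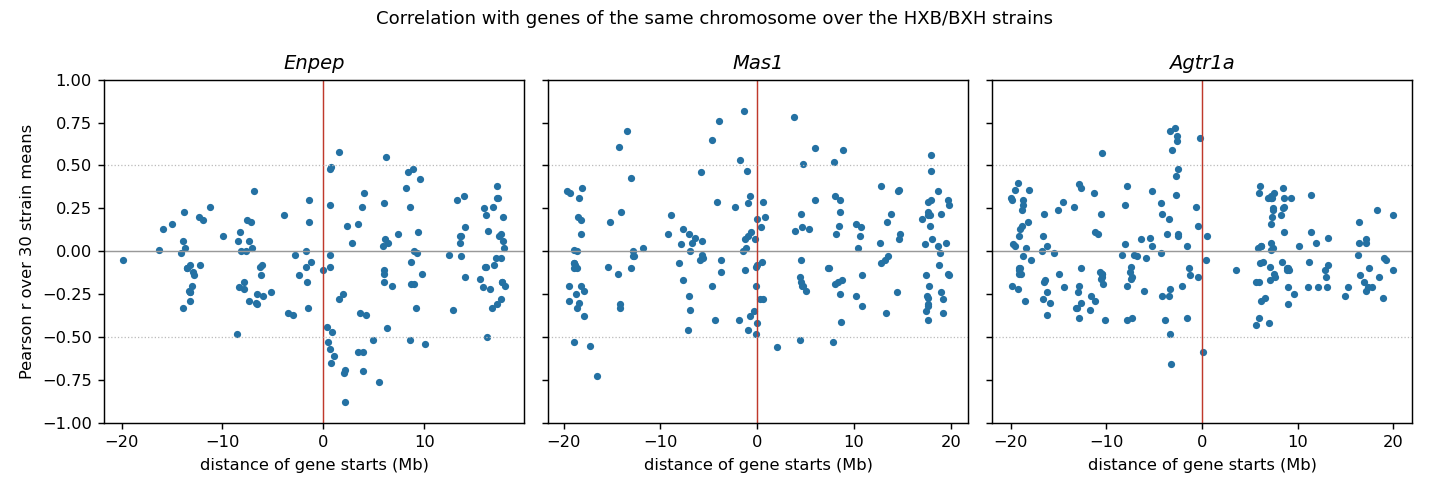
Pearson r over the 30 HXB/BXH strain means (y axis) between Enpep, Mas1 or Agtr1a and each gene within 20 Mb on the same chromosome, against the distance of the gene starts in Mb. Dotted lines mark an r of 0.5 in either direction, and the lowest point, at 2.09 Mb from Enpep, is Sgms2 at -0.88.

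The hypertensive strains were set against the other classic strains, with the strain mean as the unit. No member passed 5% FDR, nor did any of the 20859 genes (0% called), while 1619 genes had an unadjusted p below 0.05, and with animals as units and strain as a random effect limma called 26 genes and no member. Enpep had the largest difference. The Enpep means were 8.26 in SHR/OlaIpcv, 8.21 in SHRSP/A3NCrl, 8.09 in SS/JrHsd, 7.84 in LH/MavRrrc, 7.98 in FHH/EurMcwi and 8.04 in MWF/Hsd. The other 19 strains ran from 7.59 in BN/NHsdMcwi through a median of 7.95 to 8.43 in LE/Stm, and LEW/Crl at 8.22 came next. Of these, LE/Stm with its 1 animal was alone above SHR/OlaIpcv. So 5 of 6 hypertensive strains were above the median of the others and none was above them all, with a difference of 0.14 (95% interval -0.05 to 0.32, adjusted p 0.718). LE/Stm and LEW/Crl, the highest of the others, are the strains of the libraries in doubt. Without these libraries no member passed either.

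Agtr1a split the hypertensive strains. It was 4.93, 4.84 and 4.90 in SHR/OlaIpcv, SHRSP/A3NCrl and SS/JrHsd, and 4.38, 4.59 and 4.55 in LH/MavRrrc, FHH/EurMcwi and MWF/Hsd, where the others had a median of 4.56 and a highest value of 5.17. That value was LE/Stm, and GK/FarMcwi at 4.79 came next, below SHR/OlaIpcv, SHRSP/A3NCrl and SS/JrHsd. The difference was 0.13 (95% interval -0.07 to 0.33, adjusted p 0.755). Over the libraries of batches 1 to 14, which held the first 3 strains (SHR/OlaIpcv by animal 1) and 12 other strains, the difference was 0.30 (adjusted p 0.729). Over those of batches 15 to 17, which held the last 3 strains and 5 other strains, it was -0.062 (adjusted p 0.881), with SHR/OlaIpcv left out. SHR/OlaIpcv was the 1 hypertensive strain run in both sets. Its libraries in batches 15 to 17 had Agtr1a at 4.89 and 4.80 (animal 1) and 5.14, 4.95 and 4.85 (animal 4), above the means of LH/MavRrrc, FHH/EurMcwi and MWF/Hsd. For the other 5 strains, strain and batch set cannot be told apart.

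The remaining members differed by less. Mas1 was 8.23, 8.02, 7.87, 7.77, 8.03 and 7.94 in the 6 strains in the same order, where the others had a median of 8.12, and 1 of the 6 lay above it. Its difference was -0.11 (95% interval -0.24 to 0.01, adjusted p 0.662), with -0.045 within batches 1 to 14 and -0.20 within batches 15 to 17. Agt was 12.26, 12.30, 12.54, 12.19, 12.62 and 12.31 against a median of 12.49, a difference of -0.11. Ace differed by -0.067, Lnpep by 0.076 and Atp6ap2 by 0.043. None of the 18 other pathway genes passed. The median difference was 0.043 over the 7 members, 0.005 over the pathway genes and -0.001 over all genes.

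Strains bred for high blood pressure were also set beside their usual control strains, a choice made after the data were seen. SS/JrHsd, the Dahl salt-sensitive strain, had Enpep at 8.17, 8.12 and 7.97, and SR/JrHsd, its salt-resistant counterpart, at 7.40, 7.74 and 7.76. The strains did not overlap, and the share of all genes without such an overlap was not counted. Enpep was 0.46 higher in SS/JrHsd (95% interval 0.25 to 0.66, adjusted p 0.0087, limma), or 1.37-fold. It was 1 of 7 members called, where 0.988% of genes were. Leaving out 1 animal at a time gave 0.34 to 0.52, and the call was lost without SR/JrHsd replicate 1 (0.34, adjusted p 0.197), without SS/JrHsd replicate 1 (0.41, adjusted p 0.134) and without SS/JrHsd replicate 2 (0.44, adjusted p 0.0759). Mas1 was 7.66, 7.89 and 8.07 in SS/JrHsd and 8.35, 8.06 and 8.24 in SR/JrHsd, a difference of -0.35 (adjusted p 0.157) with an overlap of the lowest SR/JrHsd animal and the highest SS/JrHsd animal. Agtr1a was 4.98, 4.95 and 4.78 against 4.29, 4.92 and 4.63, a difference of 0.29 (adjusted p 0.641). Animals of both strains stood at the end of the range of all animals in markers of brain regions. SS/JrHsd replicate 1 was the highest of all in the means of 5 hypothalamic markers (8.26, where the median of all animals was 7.40) and of 3 pituitary markers (6.46, median 4.43), and SR/JrHsd replicate 1 was the highest in the 6 striatal markers (10.85, median 10.50). These 2 animals also had the highest and lowest Enpep and the lowest and highest Mas1 of the pair, and the part of the markers in the differences was not tested.

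SHR/OlaIpcv and SHRSP/A3NCrl were compared with WKY/NCrl, the normotensive strain from the same Wistar stock. None of 7 members passed in either pair, where 0.825% and 0.805% of genes did. WKY/NCrl had Enpep at 7.99, 8.11 and 8.08 and SHRSP/A3NCrl at 8.28 and 8.14, and each of these pairs shares the WKY/NCrl animals. SHR/OlaIpcv exceeded WKY/NCrl by 0.20 in Enpep (95% interval -0.03 to 0.43, adjusted p 0.695) and SHRSP/A3NCrl by 0.15 (95% interval -0.08 to 0.39, adjusted p 0.872). Agtr1a exceeded it by 0.24 and 0.15, and Mas1 differed by -0.022 and -0.24, none past 5% FDR. By the paper's methods, the HXB/BXH strains and their progenitors were kept in Prague, and their brains were shipped in liquid nitrogen. Its other classic strains came from Charles River or Envigo, and their brains were put in RNAlater. For SHR/OlaIpcv against WKY/NCrl, strain cannot be told apart from colony and storage. The fits over all 74 strains and over the classic strains, hypertensive and other, mix both sources as well.

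**Figure D5:**
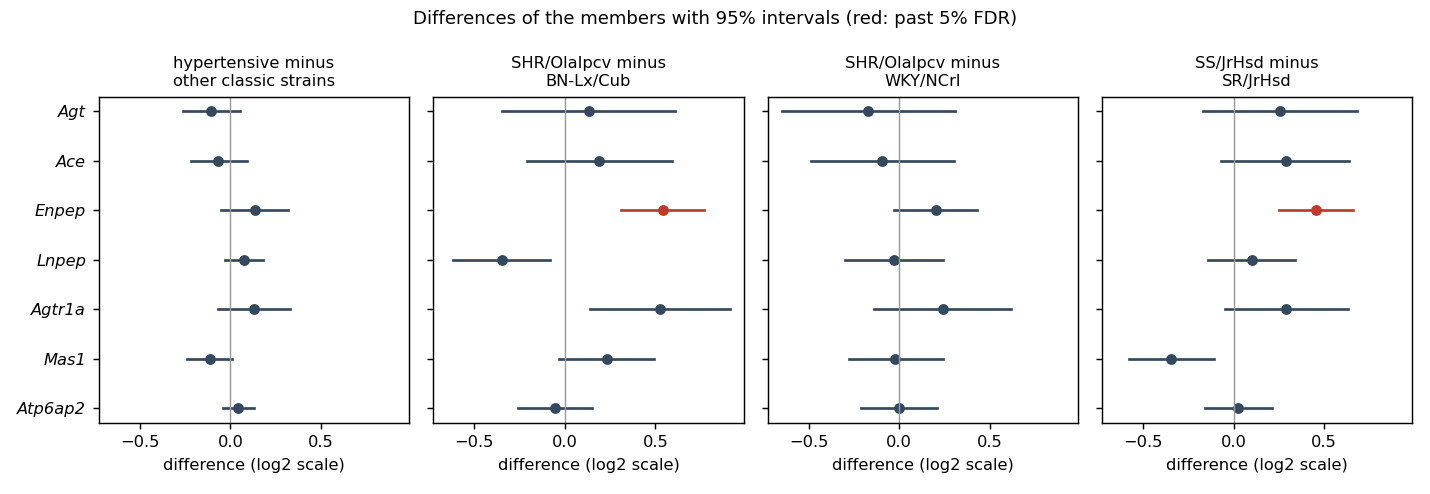
Differences of the 7 members on the log2 scale (points) with 95% intervals (lines) for the hypertensive against the other classic strains and for 3 strain pairs, in red where past 5% FDR. Enpep is red at 0.54 for SHR/OlaIpcv against BN-Lx/Cub and at 0.46 for SS/JrHsd against SR/JrHsd, and all other points are not.

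Among themselves the members varied mostly apart from each other. Over 74 strain means Agt and Ace had an r of 0.53, and 0.43 over the deviations of 192 animals from their strain means. Agt and Lnpep had -0.50 over strains and -0.55 over animals. Enpep had an r of 0.23 with Agtr1a and between -0.04 and 0.14 with the other members over strains. LE/Stm was the highest strain in both Enpep and Agtr1a, and without it their r was 0.14 over 73 strains. Over the 30 HXB/BXH strains it was -0.15 and over animals within strains 0.28. Strains of a family share progenitors and libraries share batches, so these values are given without a test.

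The genes whose strain means were most like those of a member, among genes above the median level of the table, differed from member to member. For Atp6ap2 they were Atp6v1h (r 0.74) and Atp6v1a (r 0.72), which encode subunits of the vacuolar proton pump, and Wdr37 (0.70). For Agt they were Baiap3 (0.82), Flywch1 (0.81) and Kcnh2 (0.79), for Ace Plxnb2 (0.76), Notch2 (0.76) and Arhgef40 (0.75). Lnpep had Rc3h2 (0.90), Arfgef1 (0.89) and Rlim (0.89), with 151 genes within 0.1 of the first, against 7 for Enpep. Mas1 had Olfm1 (0.69), Rasgrp1 (0.66) and Dok5 (0.66), and Agtr1a P4hb (0.53), Surf4 (0.47) and Lpcat3 (0.46). Enpep had Cmtm6 (0.58), Ghr (0.58) and Manba (0.57), which lies 6.17 Mb from it on chromosome 2. Over the 30 HXB/BXH strains Manba (0.55) and Ostc (0.58, at 1.5 Mb) were among the 3 most alike, with Slc7a3 (0.66) first. Mas1 had Nlk (0.85), Synj2 (0.82, at 1.36 Mb before it) and Dclk1 (0.79) there, and Agtr1a Lyrm9 (0.69), Gemin8 (0.68) and Gpn1 (0.67).

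Markers of brain cell types moved with some members. Ace had an r of 0.61 with the mean of 7 choroid plexus markers over 74 strains and of 0.64 over the 192 animals within strains. With 4 meningeal markers it had 0.50 and 0.41, though -0.15 and -0.21 with Dcn among them. Agt had 0.39 and 0.49 with endothelial markers, 0.38 and 0.48 with hypothalamic, 0.31 and 0.46 with meningeal and 0.29 and 0.41 with pericyte markers. Within the endothelial list it had 0.58 with Cldn5 and 0.57 with Esam over strains but -0.28 with Slco1a4 and -0.14 with Tek, and within the meningeal list 0.46 with Col1a1 but -0.30 with Dcn. It had 0.26 and 0.35 with the 7 astrocyte markers, within which Aldh1l1 (0.70 and 0.83) and Gfap (0.54 and 0.78) were high and Slc1a3 (-0.22 and -0.28) and Aqp4 (-0.17 and -0.08) were below 0. With 4 oligodendrocyte markers Agt had 0.19 over strains and 0.59 within them. Mas1 had 0.39 and 0.19 with 6 markers of striatal projection neurons, -0.40 and -0.14 with pituitary and -0.38 and -0.29 with hypothalamic markers. Enpep had 0.17 over strains and 0.38 within strains with 5 pericyte markers, 0.11 and 0.31 with 6 endothelial markers, and -0.47 and 0.10 with 5 neuronal markers. It had 0.34 and 0.12 with meningeal, 0.32 and 0.06 with liver and 0.31 and 0.13 with choroid plexus markers. Without LE/Stm the values of Enpep over the 73 other strains were 0.13 with liver, 0.25 with choroid plexus, 0.33 with meningeal, 0.09 with pericyte, 0.08 with endothelial and -0.42 with neuronal markers. Agtr1a had -0.38 and -0.02 with neuronal and 0.32 and 0.29 with liver markers, and without LE/Stm -0.30 and -0.06 over strains. Lnpep had -0.43 and -0.21 with endothelial, -0.38 and -0.34 with meningeal and 0.37 and 0.37 with neuronal markers. These lists were split for Lnpep as well. Over strains it had -0.73 with Cldn5 and -0.64 with Esam but 0.48 with Slco1a4 and 0.13 with Tek of the endothelial list, -0.46 with Col3a1 but 0.21 with Dcn of the meningeal list, and 0.63 with Map2 and 0.56 with Snap25 but -0.37 with Rbfox3 and -0.13 with Nefl of the neuronal list. Atp6ap2 had -0.32 and -0.49 with astrocyte markers, and this list was split too. It had -0.38 and -0.65 with Sox9, -0.37 and -0.37 with Gfap, -0.32 and -0.54 with Slc1a2 and -0.21 and -0.20 with Aldh1l1. With Aqp4 it had -0.07 and 0.08, with Slc1a3 0.02 and 0.13 and with Gja1 0.03 and -0.31. The pericyte mean ran from 9.04 through 9.11 to 9.24 in the lower Enpep class and from 8.91 through 9.09 to 9.22 in the higher class, so that the classes overlapped in it. The endothelial mean ran from 10.10 through 10.28 to 10.32 in the lower class and from 10.16 through 10.23 to 10.36 in the higher class. The meningeal mean ran from 10.42 through 10.65 to 10.92 and from 10.28 through 10.66 to 11.01, the choroid plexus mean from 8.77 through 8.98 to 9.21 and from 8.67 through 9.07 to 9.47, and the neuronal mean from 14.31 through 14.40 to 14.46 and from 14.25 through 14.35 to 14.44. Neuronal, astrocyte and oligodendrocyte markers were detected in all animals, with neuronal means from 14.13 to 14.57, as the label of whole brain gives.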

How the data were processed

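Brain RNA of inbred rats was sequenced after depletion of ribosomal RNA, and the deposited v7.1 RefSeq gene table was analysed. For the earlier v5 tables, the authors used Cutadapt to trim reads and Bowtie 2 to take out ribosomal ones, aligned the rest to strain-specific rn6 genomes with HISAT2, estimated abundance with RSEM and removed 1 factor of unwanted variation. They deposited log2 values made by a regularized log transformation, which draws low genes together, so that fold changes of low genes are understated. Which build and steps made v6 and v7.1 is not given in the sources used here. The submitters' processing notes name rn6 for some samples and, for others, the later tools Bowtie2 2.4.5, HISAT2 2.2.1, StringTie 2.2.1 and RSEM 1.3.3. The v7.1 table of reconstructed genes was treated as a score, since the deposited values reach 72.6. The RefSeq table reaches 36.88, in genes other than the members. The tables hold no counts, so the depth of each library is unknown and the number of animals limits the precision. Library medians ran from 8.18 to 8.42. No library held the values of another.

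Spike-in features (73) were left out. Strain, replicate and batch came from the labels, and in 26 samples the title gives another batch. Libraries of 1 strain and replicate number were averaged to 1 animal. In fits of animals, p-values of strain effects and strain pairs therefore measure the spread between samples labelled as replicates. Those of tests on strain means measure the spread between strains. Strain effects were tested by the moderated F-test and strain pairs by contrasts over all animals in limma 3.58.1 (R 4.3.3), and groups of strains on strain means, with Benjamini-Hochberg adjustment over all 20859 genes and a call at an FDR of 0.05. Mixtures of 1 or 2 normal distributions of equal variance were fitted with mclust 6.1.1. The fits were tested on simulated data. Where several features carried 1 symbol in another table, the one with the highest mean was taken, and Mas1 was not analysed in the table of reconstructed genes. The genes named were the members, up to 5 called genes of the pathway list, and for each member the 3 genes most like it among those with a symbol and a mean level above the table's median, leaving out LOC symbols. Exceptions are stated, and 1 gene of the pathway list is not reported here. Alternatives were other tables, scaling, a filter on low values, batch as a covariate, the replicate block and leaving out animals or strains. The members and lists were chosen with earlier results of these data known.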

Additional observations from a re-analysis of the deposited data

How the results depend on the processing

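Counts of members with a strain effect are given with the share of all genes called in the same fit. Over 74 strains they were 4 (37.3%) in the reported fit, 2 of 6 (22.2%) in the table of reconstructed genes, 3 (32.3%) in the v6 table of 58 strains and 7 (63.6%) in the v5 table of 45 strains. They were 6 (57.3%) with batch as a covariate and 2 to 4 (14.4% to 29.1%) without 1 replicate number. Above the median level they were 0 of 4 (34.3%), where Enpep, Mas1 and Agtr1a fell away and Agt had an adjusted p of 0.0513. Enpep was called in each of these fits of all strains that held it, with an R2 from 0.699 to 0.901. In the HXB/BXH family 3 members passed (19.1%), against 1 (12.7%) in the table of reconstructed genes, 0 of 4 (14.7%) above the median level, 5 (32.1%) with batch as a covariate and 1 to 2 (8.04% to 9.31%) without 1 replicate number. In the FXLE/LEXF family 1 passed (4.61%), and 0 (5.09%) with batch as a covariate. For SHR/OlaIpcv against BN-Lx/Cub the count of 1 (4.51%) became 0 (2.98%) in the table of reconstructed genes, 0 (4.5%) above the median level and 2 (16.5%) in the fit of libraries with batch. It was 0 to 1 (0.968% to 8.52%) without 1 animal, when Enpep ran from 0.36 to 0.72. For SS/JrHsd against SR/JrHsd the count of 1 (0.988%) was 0 to 1 (0.264% to 1.67%) without 1 animal. No member passed in any fit of the hypertensive strains or of HXB against BXH. Over all genes, 7785 strain effects became 11958 with batch as a covariate and 3003 without replicate 2, and in the HXB/BXH family 3992 became 6694 and 1677 without replicate 1. For the progenitors 940 became 3450 in the fit of libraries with batch, 408 in the v6 table and 202 without SHR/OlaIpcv replicate 4.

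The difference between SHR/OlaIpcv and BN-Lx/Cub changed sign for Agt (-0.34) and Ace (-0.14) in the table of reconstructed genes, for Agt (-0.042) and Atp6ap2 (0.025) in the v6 table, for Agt (-0.30), Mas1 (-0.017) and Lnpep (0.24) in the v5 table, and for Atp6ap2 (0.076) in the fit of libraries. Without 1 animal it ran from -0.03 to 0.25 for Agt and from -0.13 to 0.069 for Atp6ap2. Agtr1a in the hypertensive strains reversed within batches 15 to 17 (-0.062). Without 1 animal, SHR/OlaIpcv minus WKY/NCrl ran from -0.25 to 0.021 for Ace, -0.043 to 0.008 for Mas1, -0.028 to 0.029 for Atp6ap2 and -0.096 to 0.043 for Lnpep. SHRSP/A3NCrl minus WKY/NCrl ran from -0.33 to 0.069 for Agt, -0.54 to 0.059 for Mas1, -0.24 to 0.07 for Atp6ap2 and -0.12 to 0.29 for Lnpep. SS/JrHsd minus SR/JrHsd ran from -0.073 to 0.13 for Atp6ap2 and -0.03 to 0.18 for Lnpep. The cause was not tested. None of these reversed values passed 5% FDR.

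Replicate numbers did not pair the strains. Deviations from the strain mean of animals with the same number had a median r of 0.02, against -0.01 with other numbers. With the replicate block, 3 members (38.3% of genes) had a strain effect over 74 strains and 2 (19.1%) in the HXB/BXH family, and 0 members (1.97%) passed for SHR/OlaIpcv against BN-Lx/Cub, where Enpep had 0.40 (adjusted p 0.0952). Lnpep in SHR/OlaIpcv against WKY/NCrl reversed under the block (0.076). Batch as a covariate of animals could not be fitted for SHR/OlaIpcv against BN-Lx/Cub or WKY/NCrl. The fit of libraries, the separate fits of the classic and FXLE/LEXF panels, the 3 further strain pairs, the fits without HXB17/Ipcv 2 and the equal library medians for HXB against BXH were chosen after seeing the data.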
